A study of Rattus norvegicus with 9 samples.

Results

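The genes described here make, load, acidify and serve the lysosome of INS-1E cells, an insulin-secreting beta cell line derived from a rat insulinoma. A gene was taken when the KEGG annotation in the authors' table placed it in the lysosome pathway (110 genes), in other glycan degradation (18 genes) or in glycosaminoglycan degradation (15 genes), or when its symbol began with Atp6v or Atp6ap (25 genes, 17 of them in none of the 3 pathways). This gave 140 of the 20645 genes of the table, and the rule itself uses annotation and symbols, not measured values. RNA was sequenced from 9 libraries, 3 in each of 3 groups. The BSA group was given fatty acid-free bovine serum albumin for 24 h, the PA group palmitic acid (PA, a saturated fatty acid) for 24 h, and the PA + C3G group PA together with cyanidin-3-O-glucoside (C3G, a plant anthocyanin) for 24 h. The methods give 0.5 mM for PA and 50 µM for C3G, doses that the sample labels do not carry. All libraries came from 1 cell line, C3G without PA was not among the samples, and nothing in the labels says that the 3 libraries of a group were separate cultures, so the p-values measure the spread between these libraries, which may be partly technical. The comparisons ask how the transcripts of these genes moved with PA and how they stood when C3G was present.

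Lysosomes are acidic organelles that break down proteins, glycans, lipids and nucleic acids. Most of their enzymes are made in the endoplasmic reticulum, tagged with mannose 6-phosphate in the Golgi and carried onwards by mannose 6-phosphate receptors, clathrin and adaptor complexes. The V-ATPase, built from a cytosolic V1 sector that splits ATP and a membrane V0 sector that conducts protons, acidifies lysosomes, and in beta cells also insulin granules. Many genes of the lysosome carry an E-box sequence read by the transcription factors TFEB and TFE3.

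Expression is given as FPKM, the fragments of a gene per kilobase of its length, scaled to the size of its library, so levels of different genes can be set side by side. Of the 140 genes, 117 had a mean of at least 1 FPKM over the 9 libraries and were tested, and 23 did not. A call means an adjusted p-value below 0.05 in edgeR's quasi-likelihood test over all 12958 genes above that level, and log2 fold changes are from that fit, with their standard error (SE). Library totals of the estimated counts ran from 45559993 to 66730721. The 8 beta cell markers were all detected. Their summed level was 48910 to 49620 FPKM under BSA, 22080 to 22600 under PA and 46470 to 52090 under PA + C3G. Ins1 was the largest part of this sum in each group, and single markers differed from it. Means under BSA, PA and PA + C3G were 26650, 13740 and 32000 FPKM for Ins1 and 13780, 1871 and 7008 for Ins2. They were 509.7, 102.9 and 171.9 for Slc2a2 and 50.02, 52.05 and 75.99 for Nkx6-1. Of 5 markers of macrophages and leukocytes, 3 matched by symbol and summed to at most 0.138 FPKM in any library, and of 4 markers of fibroblasts and endothelium, 2 matched and summed to at most 0.0963 FPKM. The alpha, delta and PP cell list (2 of 5 matched) was carried by Gcg and summed to 8.28 to 31.2 FPKM under BSA, 1.35 to 6.02 under PA and 4.17 to 22.5 under PA + C3G, with Hhex at 0 in 8 of 9 libraries. The acinar and duct list (3 of 5 matched) was carried by Sox9 and summed to 2.60 to 2.72, 4.64 to 6.04 and 3.05 to 3.92 FPKM. The part of these shifts in the results below was not tested.

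Promoters of the genes are shown first, because an E-box is a sequence that several of them share. RefSeq promoter windows (build GRCr8) ran from 250 bases before to 50 bases after the annotated start. They were matched by Ensembl gene identifier or, failing that, by symbol to 111 of the 140 genes and to 94 of the 117 tested. Both strands were searched for 3 motifs. TCACGTGA, an 8-base palindrome at the core of the element bound by TFEB and TFE3, lay in 11 of the 94 windows (11.7%) and in 210 of 19005 windows of all protein-coding genes (1.10%). CACGTG, the 6-base E-box that every TCACGTGA contains, lay in 19 of the 94 (20.2%) and in 7.27% of all windows. TGATGNAA, at the core of the element bound by ATF4 with C/EBP factors, lay in 1 of the 94 (1.06%) and in 3.33% of all windows. These shares are descriptions with no test, and a match of letters is not a site shown to be bound. The stretches below show the palindrome in capitals with 17 bases on each side, on the strand of the gene. They were chosen to show a protease, membrane proteins, a sorting receptor and a proton pump subunit that rose with PA, beside Cd164, which fell, and Sumf1, which had no call.
Ctsd (chr1:206968808-206968849, minus strand): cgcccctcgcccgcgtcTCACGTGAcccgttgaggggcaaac
Lamp1, first match (chr16:83075105-83075146, minus strand): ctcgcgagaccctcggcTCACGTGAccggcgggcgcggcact
Lamp1, second match (chr16:83075078-83075119, minus strand): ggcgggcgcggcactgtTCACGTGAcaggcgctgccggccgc
Cln3 (chr1:190597944-190597985, minus strand): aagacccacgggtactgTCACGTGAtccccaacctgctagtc
Igf2r, first match (chr1:50526735-50526776, plus strand): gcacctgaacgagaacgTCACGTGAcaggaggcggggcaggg
Igf2r, second match (chr1:50526775-50526816, plus strand): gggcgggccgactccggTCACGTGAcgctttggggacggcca
Atp6v0d1 (chr19:50357277-50357318, minus strand): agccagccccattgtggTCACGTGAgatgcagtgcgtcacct
Cd164 (chr20:46606314-46606355, plus strand): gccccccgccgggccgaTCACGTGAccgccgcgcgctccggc
Sumf1 (chr4:142716716-142716757, minus strand): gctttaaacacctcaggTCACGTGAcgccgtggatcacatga

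Most lysosomal transcripts were higher after PA. Compared with the BSA group, 73 of the 117 tested genes rose in the PA group, 10 fell and 34 had no call. Rises made up 62.4% of the members, against 25.8% of all genes tested, and falls 8.55%, against 25.2%. The median log2 fold change of the members was 0.28, and that of all genes tested was 0.00. With the DEG criterion of the study, a fold change above 2 with an unadjusted p-value below 0.05, 16 of the 117 were higher, while 3.30% of all genes tested were. They included Npc2, Cd63, Gaa, Engase, Ctsf, Lamp2, Neu1, Ctsl, Ctsd, Tpp1, Fuca1, Naglu, Ctsa and Slc17a5. In total, the 140 genes held 6906, 6830 and 6892 FPKM in the BSA libraries and 10500, 10040 and 10550 in the PA libraries, a ratio of 1.51. An exact permutation test of 3 libraries against 3 cannot go below p = 0.1, and this sum reached that value. In bulk RNA, more transcript per cell and a change in the mix of cells cannot be told apart.

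**Figure D1:**
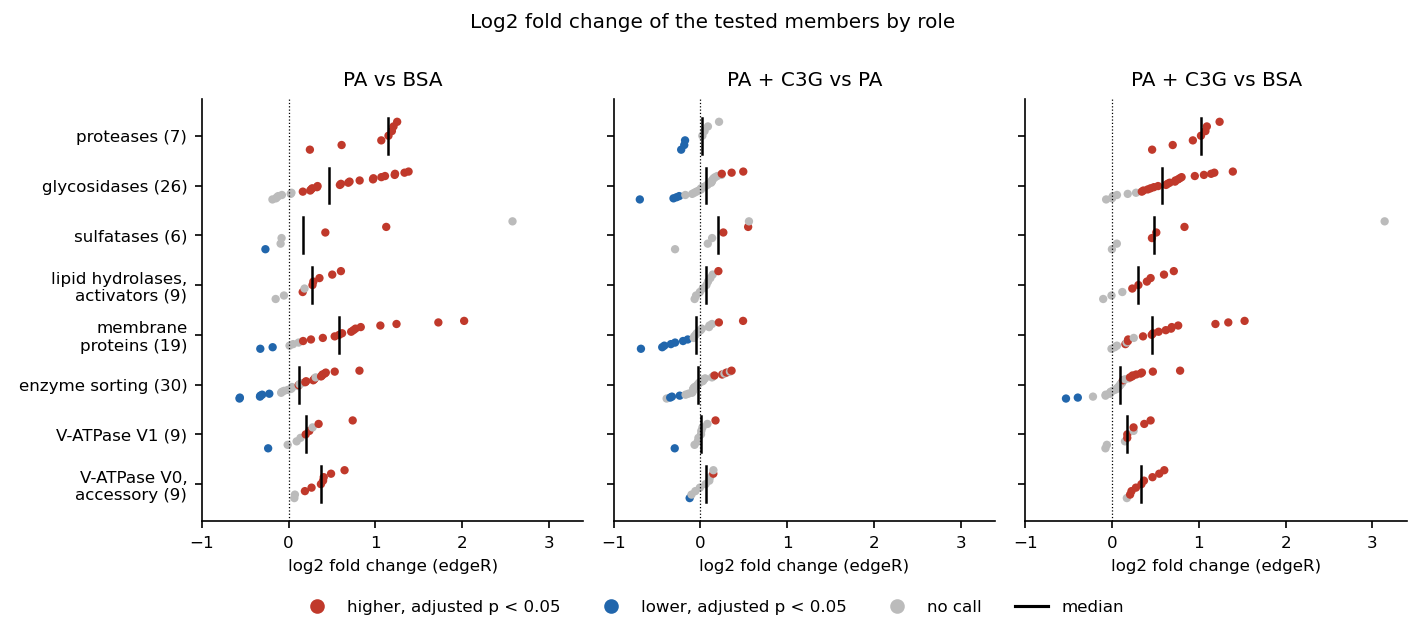
Each point is a tested gene, placed by its edgeR log2 fold change (horizontal axis) in its role group (rows, number tested in parentheses) for the 3 comparisons. Red points were called higher and blue points lower at an adjusted p below 0.05, grey points had no call, and black bars are medians. The protease median stands at 1.15 for PA versus BSA, while in PA + C3G versus PA the tested genes lie between −0.70 and 0.56.

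Proteases come first. All 7 tested proteases rose with PA, against 25.8% of all genes tested, and their median log2 fold change was 1.15. Ctsd encodes cathepsin D, the main aspartic protease of lysosomes (chromosome 1, 215541542 to 215553451 in the authors' table, whose genome build is not given in the sources used here). It stood at 159, 152 and 152 FPKM in the BSA libraries and at 350, 332 and 356 FPKM in the PA libraries, a log2 fold change of 1.19 ± 0.04 (SE, edgeR adjusted p = 2.6e-08). Every PA library lay above every BSA library. The cysteine proteases Ctsf and Ctsl rose by log2 1.25 ± 0.03 and 1.21 ± 0.04, and the tripeptidyl peptidase Tpp1 by 1.15 ± 0.05. Ctsb, another cysteine protease, was at 77.6, 83.3 and 80.6 FPKM under BSA and at 123, 118 and 122 FPKM under PA, a smaller rise of log2 0.61 ± 0.04. Ctsa, the carboxypeptidase that also stabilises the lysosomal sialidase, rose by log2 1.07 ± 0.05, and its span in the table overlaps that of Neurl2. Legumain, Lgmn, rose least, by log2 0.25 ± 0.09, and this call was lost without BSA replicate 2 (0.23), BSA replicate 3 (0.20), PA replicate 1 (0.19), PA replicate 2 (0.27), PA replicate 3 (0.27) or PA + C3G replicate 3 (0.24). The summed level of proteases went from 544 ± 8.82 FPKM (SD, n = 3) under BSA to 1130 ± 25.5 FPKM under PA. Ctsc, Ctsk, Ctsw, Ctsz and Napsa, the other 5 proteases of the list, had means of 0.018 to 0.321 FPKM and were not tested.

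With C3G present, 3 of the 7 proteases were lower than under PA alone (42.9%, against 10.2% of all genes tested), by small steps. Ctsf was at 234, 233 and 239 FPKM under PA and at 206, 198 and 204 FPKM under PA + C3G, a log2 fold change of −0.18 ± 0.03 (edgeR adjusted p = 0.0053). Tpp1 differed by −0.22 ± 0.05 and Ctsl by −0.19 ± 0.04, the latter without a call when PA replicate 3 was left out (−0.18). Libraries of the 2 groups did not overlap for these 3 genes. Ctsd, at 358, 343 and 345 FPKM under PA + C3G, overlapped with the PA libraries and had no call, as did Ctsb and Ctsa. Against BSA, all 7 proteases were higher in the PA + C3G group, as were 19.0% of all genes tested.

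Glycosidases trim sugars from glycoproteins, glycolipids and glycogen. Of 26 tested, 19 rose with PA (73.1%, against 25.8% of all genes tested) and the other 7 had no call. The median log2 fold change was 0.46. Gaa encodes acid alpha-glucosidase, which degrades glycogen (chromosome 10, 108395860 to 108413059). Its level was 178, 159 and 165 FPKM under BSA and 443, 409 and 437 FPKM under PA, a log2 fold change of 1.38 ± 0.05 (edgeR adjusted p = 4.9e-08). The lysosomal sialidase Neu1 went from 16.9, 16.3 and 16.9 FPKM to 40.5, 34.7 and 39.9 FPKM. Groups did not overlap for either gene. Fuca1, a fucosidase, and Naglu, which cuts heparan sulfate, rose by log2 1.11 ± 0.07 and 1.07 ± 0.04. The members with no call included Gla, Hpse, Hexd, Hyal2, Hyal3 and Neu3, a sialidase of the plasma membrane. Neu2, Hyal1 and Hyal4 had means of 0.00645 to 0.338 FPKM and were not tested.

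Engase differed most between the PA and PA + C3G groups among all tested members. It encodes an endo-beta-N-acetylglucosaminidase of the cytosol that frees glycans from misfolded glycoproteins (chromosome 10, 107502695 to 107515371). Its level was 3.12, 3.07 and 2.85 FPKM under BSA, 7.49, 7.30 and 7.70 FPKM under PA and 4.43, 4.42 and 4.66 FPKM under PA + C3G. All PA libraries lay above all PA + C3G libraries, which in turn lay above all BSA libraries. The log2 fold changes were 1.34 ± 0.07 from BSA to PA, −0.70 ± 0.07 for PA + C3G versus PA (edgeR adjusted p = 0.00026) and 0.64 ± 0.07 for PA + C3G versus BSA. Naglu (−0.31 ± 0.04) and Manba, a beta-mannosidase (−0.24 ± 0.05), were also lower with C3G.

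Of the 26 glycosidases, 3 were higher in PA + C3G than in PA (11.5%, against 11.1% of all genes tested). Among them was Neu3, at 5.14, 5.43 and 5.48 FPKM under PA and at 7.13, 8.26 and 6.67 FPKM under PA + C3G, a log2 fold change of 0.49 ± 0.11 (edgeR adjusted p = 0.010). All its PA + C3G libraries lay above all its PA libraries. Against BSA, 19 of the 26 glycosidases were higher in the PA + C3G group (73.1%, against 19.0% of all genes tested), with a median log2 fold change of 0.57.

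Sulfatases remove sulfate from glycosaminoglycans and sulfolipids, and Sumf1 activates them. Among 6 tested genes, 2 rose with PA (33.3%, against 25.8% of all genes tested), 1 fell (16.7%, against 25.2%) and 3 had no call. These shares lie near those of all genes. The highest log2 fold change of the group with PA, 2.58, belonged to a gene with no call. Arsa, which desulfates sulfatide, rose by log2 0.42 ± 0.04, and Arsb, which acts on dermatan sulfate, fell by 0.27 on the log2 scale (SE 0.06). With C3G, Arsb was 0.26 ± 0.06 higher than under PA, and its PA + C3G libraries of 40.0, 36.9 and 36.6 FPKM overlapped with those of BSA at 41.7, 39.2 and 37.8 FPKM. That call did not hold when libraries were rescaled to equal FPKM sums (log2 0.17, adjusted p = 0.057). Arsg, a heparan sulfate sulfatase, was at 16.1, 13.7 and 14.5 FPKM under PA and at 22.9, 19.3 and 21.1 FPKM under PA + C3G, a log2 fold change of 0.55 ± 0.09, the largest called rise with C3G among the members. Its span overlaps Wipi1 on the other strand, and whether the authors counted by strand is not stated. Galns, at a mean of 0.852 FPKM, was not tested.

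Lipid hydrolases, their activator proteins and the acid phosphatase Acp2 formed the next group. Of 9 tested genes, 6 rose with PA (66.7%, against 25.8% of all genes tested) and 3, namely Lipa, Pla2g15 and Ppt2, had no call. Smpd1, acid sphingomyelinase, went from 28.1, 27.8 and 27.2 FPKM under BSA to 42.8, 40.0 and 41.4 FPKM under PA and was at 42.0, 38.0 and 40.6 FPKM under PA + C3G. The PA and PA + C3G libraries overlapped, and both stood above BSA. Psap, the precursor of the saposins that present sphingolipids to their hydrolases, had 333, 311 and 325 FPKM under BSA, 475, 432 and 442 FPKM under PA and 526, 491 and 501 FPKM under PA + C3G. It rose by log2 0.50 ± 0.05 with PA and stood 0.21 ± 0.05 higher again with C3G (edgeR adjusted p = 0.012), a call lost when libraries were rescaled to equal FPKM sums (0.12, adjusted p = 0.10). Asah1, acid ceramidase, rose by log2 0.36 ± 0.07 with PA and overlaps Pcm1. Ppt1, which removes palmitate from proteins, rose by 0.29 ± 0.09, and its call was lost without BSA replicate 2 (0.24), BSA replicate 3 (0.28) or PA replicate 1 (0.18). The PA call of Acp2 was lost without BSA replicate 1 (0.13), BSA replicate 3 (0.13) or PA replicate 1 (0.14). That of Gm2a was lost without BSA replicate 2 (0.22), BSA replicate 3 (0.26) or PA replicate 1 (0.22). Lipa, the lysosomal acid lipase, was at 4.41 to 4.90 FPKM under BSA and at 4.33 to 4.62 FPKM under PA. The other 2 members of the group, Dnase2 and Psapl1, were under the filter.

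**Figure D2:**
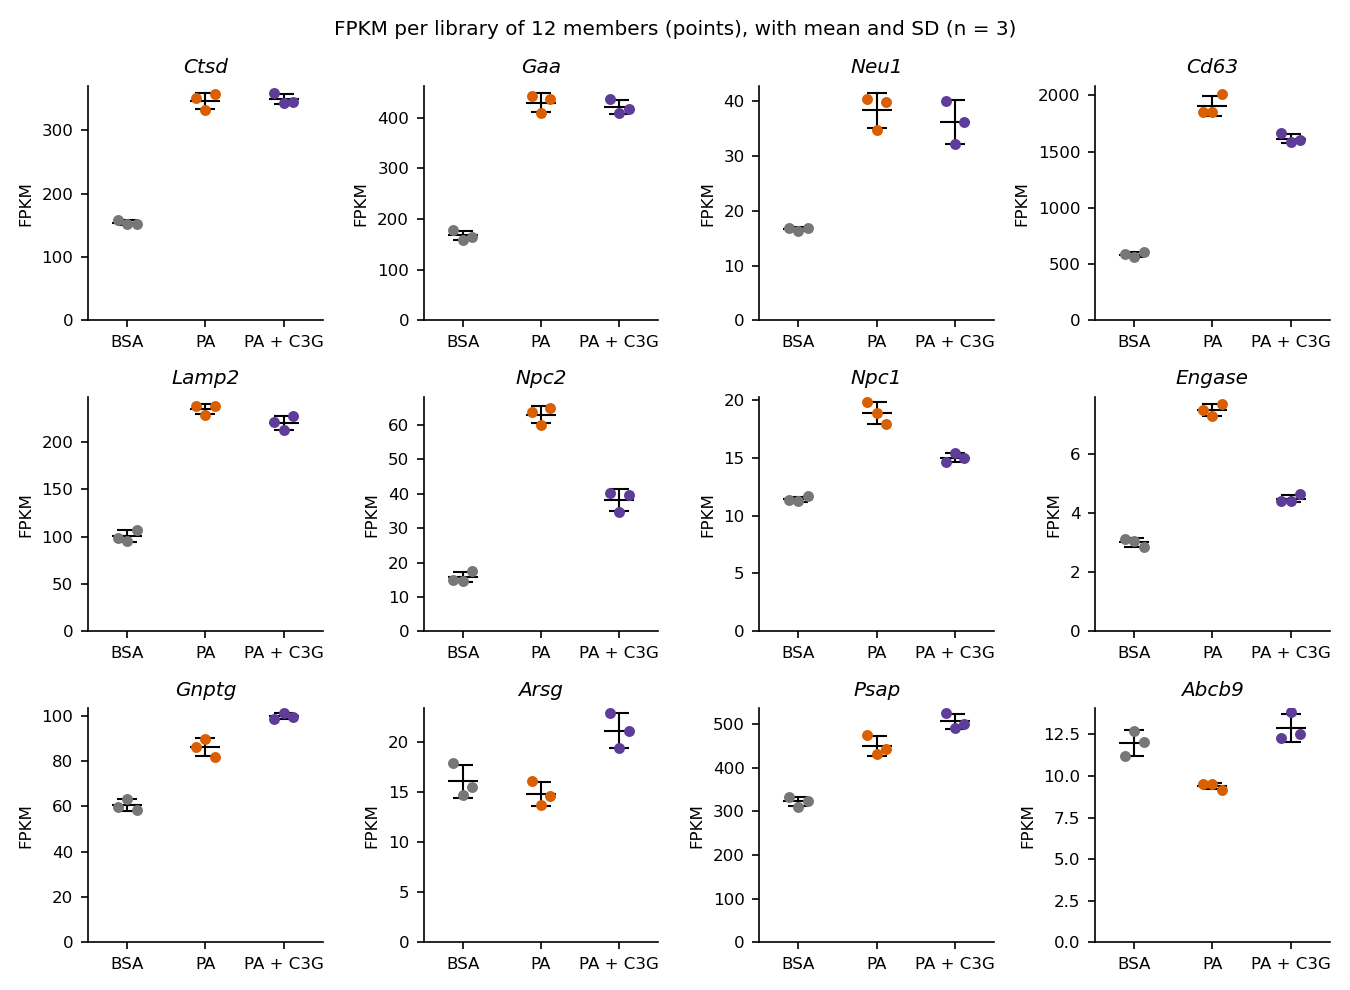
FPKM of 12 genes (vertical axes, each starting at 0) in the 9 libraries, with BSA, PA and PA + C3G along the horizontal axes; points are libraries, and bars are the mean and SD of 3 libraries. Ctsd, Gaa, Neu1 and Lamp2 had no call between PA and PA + C3G, Cd63, Npc2, Npc1 and Engase lie between BSA and PA with C3G, and Gnptg, Arsg and Psap stand highest with C3G.

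The largest called rises of single genes, those of Npc2 and Cd63, were among the membrane proteins and transporters. Of 19 tested genes of this group, 14 rose with PA (73.7%, against 25.8% of all genes tested), 2 fell (10.5%, against 25.2%) and 3 had no call. The median log2 fold change was 0.58. Npc2, a soluble protein that hands cholesterol to the membrane protein Npc1 and is grouped with it here, had the largest called rise (chromosome 6, 108467410 to 108488330). Its level was 15.0, 14.8 and 17.4 FPKM under BSA, 63.9, 60.1 and 65.0 FPKM under PA and 40.3, 34.6 and 39.6 FPKM under PA + C3G. The 3 groups were fully separate, with PA + C3G in the middle. The log2 fold change was 2.02 ± 0.08 with PA (edgeR adjusted p = 7.1e-08) and −0.69 ± 0.08 with C3G against PA (edgeR adjusted p = 0.00045). Npc1, the membrane partner that exports cholesterol from lysosomes, went from 11.3, 11.3 and 11.7 FPKM under BSA to 19.8, 18.8 and 17.9 FPKM under PA and to 14.7, 15.4 and 14.9 FPKM under PA + C3G. It shared the order of Npc2 with smaller steps, log2 0.75 ± 0.05 and −0.29 ± 0.05, and overlaps Rmc1 on the other strand. The tetraspanin Cd63 was the most abundant member, at 588, 561 and 606 FPKM under BSA, 1850, 1855 and 2010 FPKM under PA and 1662, 1583 and 1603 FPKM under PA + C3G. It rose by log2 1.73 ± 0.04 with PA and was lower with C3G than under PA (log2 −0.20 ± 0.04).

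Lamp1 and Lamp2, the main glycoproteins of the lysosomal membrane, rose by log2 0.72 ± 0.04 and 1.24 ± 0.05 with PA. Lamp2 went from 98.9, 95.7 and 107 FPKM to 237, 228 and 238 FPKM and was at 221, 212 and 227 FPKM with C3G, and neither gene had a call between PA and PA + C3G. The calcium channel Mcoln1 rose by log2 0.53 ± 0.04 with PA and had no call with C3G against PA. Slc17a5, the sialic acid exporter, rose by log2 1.06 ± 0.12 with PA and differed by −0.44 ± 0.12 with C3G against PA, a call lost without PA replicate 2 (−0.43), PA replicate 3 (−0.40), PA + C3G replicate 1 (−0.38) or PA + C3G replicate 3 (−0.38). Entpd4, a nucleotidase of the Golgi and lysosomes, rose by 0.77 ± 0.08 and differed by −0.42 ± 0.08 with C3G against PA. Scarb2 and Mfsd8 completed the 7 genes of this group that were lower with C3G than under PA (36.8%, against 10.2% of all genes tested). Scarb2, a receptor of the lysosomal membrane, lost its call without PA replicate 1 (−0.13), PA replicate 3 (−0.14) or any 1 of the PA + C3G libraries (−0.14 to −0.15). Mfsd8 lost its call without PA replicate 2 (−0.27), PA replicate 3 (−0.34), PA + C3G replicate 1 (−0.30) or PA + C3G replicate 2 (−0.34). Abcb9, which pumps peptides into lysosomes, went the other way, at 11.2, 12.7 and 12.1 FPKM under BSA, 9.49, 9.52 and 9.19 FPKM under PA and 12.3, 13.8 and 12.6 FPKM under PA + C3G. It fell by 0.33 on the log2 scale with PA and was 0.49 ± 0.06 higher with C3G (edgeR adjusted p = 0.00077), and its BSA and PA + C3G libraries overlapped. The sialomucin Cd164 had the same signs, −0.18 ± 0.03 and 0.21 ± 0.03. Cd68, Slc11a1, Laptm5 and Lamp3 had means of 0.00387 to 0.468 FPKM and were not tested.

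Genes for sorting of the enzymes were mixed. Of 30 tested, 13 rose with PA (43.3%, against 25.8% of all genes tested), 6 fell (20.0%, against 25.2%) and 11 had no call. The summed level was 1336 ± 22.02 FPKM under BSA and 1414 ± 55.8 FPKM under PA, with overlapping libraries (exact permutation p = 0.2, two-sided). Genes that make and read the mannose 6-phosphate tag were among the rises. Nagpa, which uncovers the tag, rose by log2 0.82 ± 0.11, and Gnptg, a subunit of the enzyme that adds it, rose by 0.53 ± 0.05. Igf2r, the large receptor for the tag, was at 23.1, 20.3 and 21.7 FPKM under BSA, 28.9, 26.5 and 28.6 FPKM under PA and 21.8, 21.7 and 21.7 FPKM under PA + C3G. Its PA libraries stood above all others, and its PA + C3G libraries lay within the BSA range, with log2 fold changes of 0.39 ± 0.05 with PA and −0.33 ± 0.05 with C3G against PA (edgeR adjusted p = 0.0020). M6pr, the small receptor, rose by log2 0.19 ± 0.05. A second gene described as the same receptor in the table, LOC100909548, rose by 0.36 ± 0.10 (no call without BSA replicate 2, 0.30), and reads could have been split between them. Clathrin heavy chain, Cltc, rose by 0.29 ± 0.04.

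Adaptors that gather cargo into vesicles moved in both directions. Rises were called for the AP-3 subunits Ap3b1 (log2 0.43 ± 0.04), Ap3d1 (0.42 ± 0.04) and Ap3m1 (0.20 ± 0.04) and for the adaptors Gga1 (0.30 ± 0.06) and Gga2 (0.37 ± 0.05). Ap4e1 rose by 0.28 ± 0.08, with no call without BSA replicate 2 (0.22) or PA replicate 2 (0.24), and overlaps another gene on the same strand. Ap3b2 rose by 0.12 ± 0.04, a call kept in 8 of 19 alternatives and lost without any 1 of the BSA libraries, PA replicate 2, PA replicate 3 or PA + C3G replicate 3 (0.10 to 0.12). The 6 falls of the group were all adaptor subunits. Ap1s2, a small subunit of the AP-1 adaptor, was at 174, 169 and 162 FPKM under BSA, 114, 106 and 114 FPKM under PA and 109, 112 and 112 FPKM under PA + C3G. It fell by 0.57 on the log2 scale with PA (edgeR adjusted p = 2.3e-06) and had no call with C3G against PA, at log2 0.03 ± 0.04. Ap1s3 fell by 0.56 on the log2 scale. The other 4 that fell were Ap1m2, Ap1g2, Ap3s1 and Ap3s2, the last without a call when BSA replicate 1 was left out (−0.19). Ap1g2 and Ap3s1 were higher with C3G than under PA, by log2 0.36 ± 0.08 and 0.30 ± 0.07. Ap3s1 lost its call under equal FPKM sums (0.21, adjusted p = 0.056) or without PA + C3G replicate 1 (0.28). Ap1g2 overlaps Thtpa. Gnptg, at 86.2, 89.8 and 81.9 FPKM under PA and 98.7, 101 and 99.5 FPKM under PA + C3G, was also higher with C3G, by log2 0.25 ± 0.05. Gnptab, for other subunits of the same tagging enzyme, was called higher with PA (log2 0.35 to 0.42 over 19 alternatives). With C3G against PA it was called lower, opposite to Gnptg. That value ran from −0.33 to −0.18 over the alternatives, and 16 of 19 kept the call. Nagpa was lower with C3G (log2 −0.35 ± 0.11), a call lost without any 1 of the 6 libraries compared (−0.30 to −0.39) or with no filter (−0.35). The clathrin light chain Clta varied within groups, with 222, 146 and 232 FPKM under PA and 124, 190 and 132 FPKM under PA + C3G, and had no call.

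**Figure D3:**
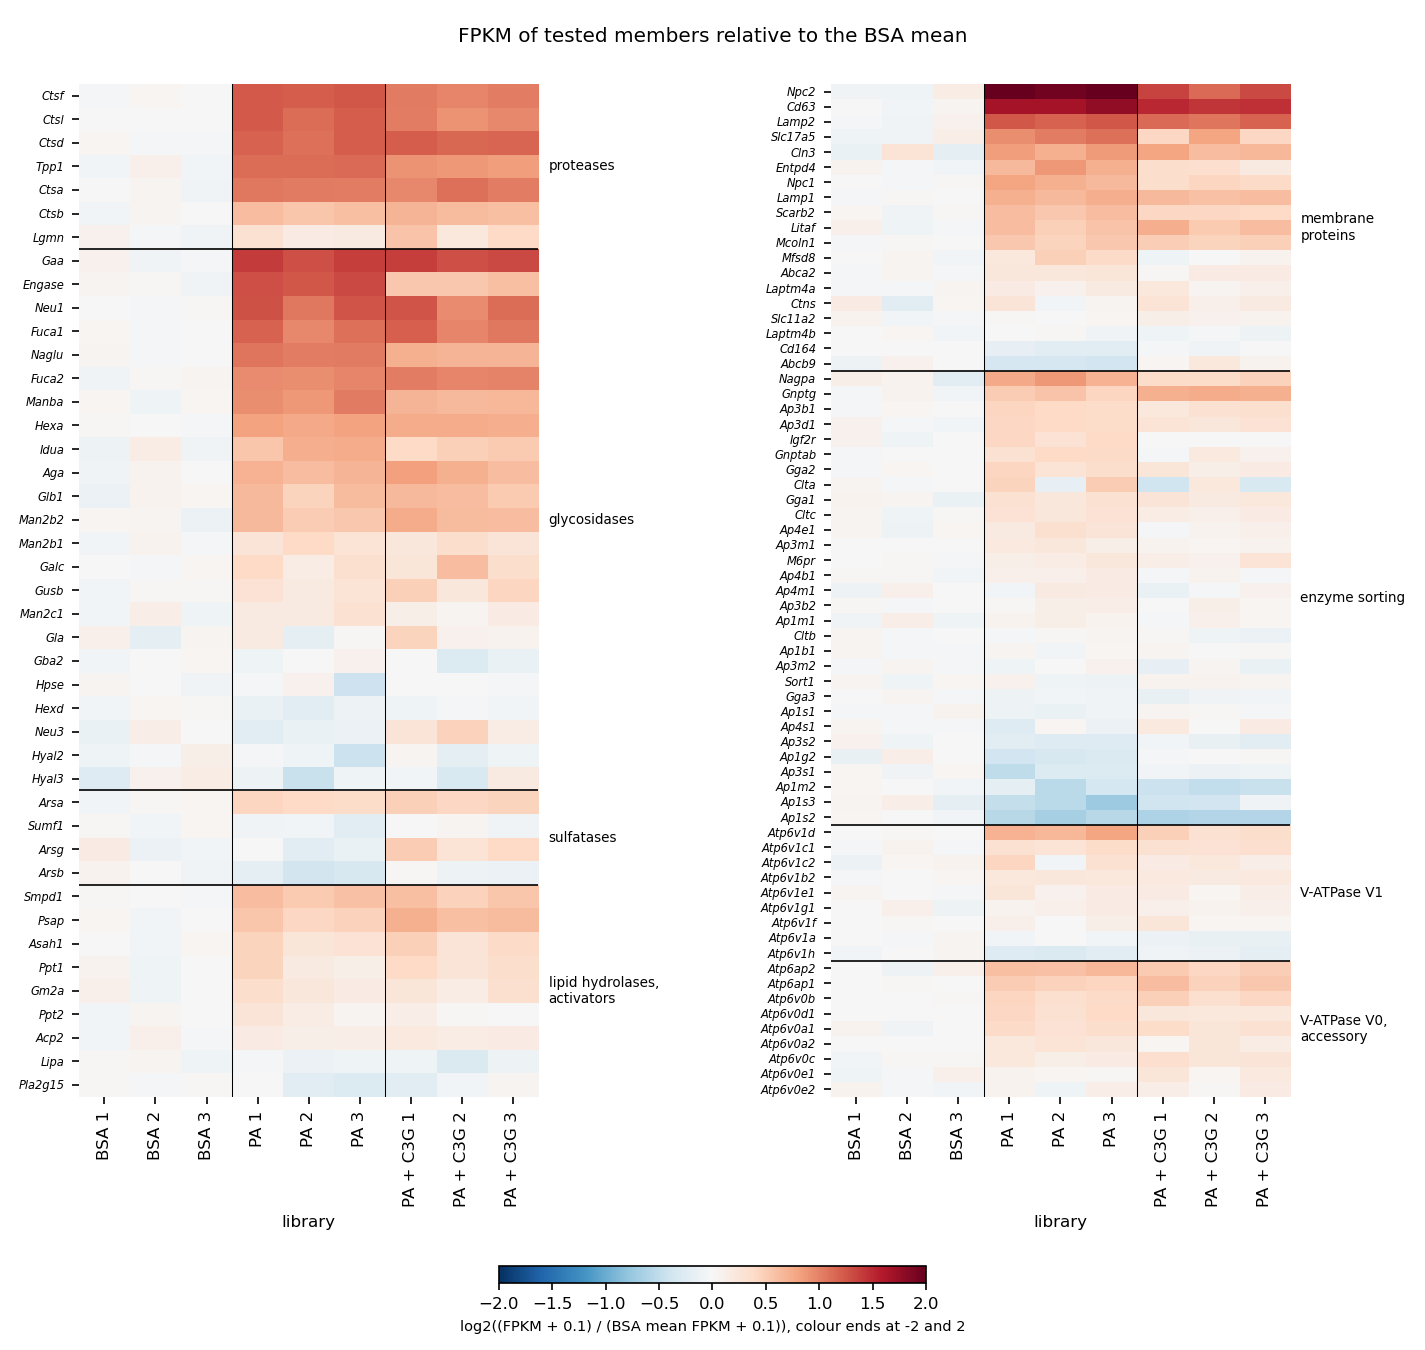
Colours give log2 of (FPKM + 0.1) over (BSA mean FPKM + 0.1) for tested genes that have a role (rows, grouped by role and ordered by their change with PA) in each of the 9 libraries (columns); the colour scale ends at −2 and 2. Proteases, the upper glycosidases and the upper membrane proteins are red in all 6 PA and PA + C3G libraries, and the lowest sorting genes are blue there.

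V-ATPase transcripts were abundant and rose by small amounts. Of 18 tested subunits and accessory proteins, 11 rose with PA (61.1%, against 25.8% of all genes tested), 1 fell (5.56%, against 25.2%) and 6 had no call. Their summed level was 1703, 1721 and 1722 FPKM under BSA and 2039, 1939 and 2025 FPKM under PA. Under PA + C3G it was 2108, 1959 and 2025 FPKM. The ratio of the PA mean to the BSA mean was 1.17 (exact permutation p = 0.1, two-sided). From PA to PA + C3G it was 1.015 with overlapping libraries, and its direction flipped when libraries were rescaled to equal FPKM sums. In V0 and the accessory proteins, 7 of 9 rose with PA, and in V1 4 of 9.

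Among V1 subunits, Atp6v1d moved most. It encodes subunit D of the central stalk, and its level was 24.2, 24.8 and 24.2 FPKM under BSA, 39.6, 38.5 and 42.0 FPKM under PA and 33.8, 30.3 and 31.2 FPKM under PA + C3G. The 3 groups were separate, with log2 fold changes of 0.74 ± 0.05 with PA and −0.30 ± 0.05 with C3G against PA (edgeR adjusted p = 0.0051). Atp6v1c1 (0.35 ± 0.04), Atp6v1b2 (0.24 ± 0.03) and Atp6v1e1 (0.20 ± 0.05) rose with PA and had no call with C3G against PA, and Atp6v1e1 overlaps another gene on the same strand. Atp6v1h, the regulatory subunit H, was the 1 that fell, from 52.4, 54.2 and 56.5 FPKM to 45.2, 44.3 and 46.7 FPKM, and was 0.17 ± 0.04 higher with C3G. That second call was lost under equal FPKM sums (0.08) and without PA replicate 1 (0.17), PA replicate 2 (0.16) or PA + C3G replicate 1 (0.14). Atp6v1a, the catalytic subunit A, was at 50.9, 49.7 and 53.2 FPKM under BSA and 49.2, 51.6 and 49.3 FPKM under PA. Atp6v1g1, Atp6v1f and Atp6v1c2 also had no call with PA.

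In the membrane sector, the accessory protein Atp6ap2, also known as the prorenin receptor, rose most, from 42.9, 40.3 and 46.6 FPKM to 65.5, 65.3 and 68.8 FPKM (log2 0.65 ± 0.06). Atp6ap1 followed at 0.49 ± 0.05. Atp6v0b (0.41 ± 0.05), Atp6v0d1 (0.40 ± 0.04), Atp6v0a1 (0.37 ± 0.05), Atp6v0a2 (0.26 ± 0.05) and Atp6v0c (0.19 ± 0.04) rose as well, while Atp6v0e1 and Atp6v0e2 had no call. Atp6v0c, the proton-carrying ring subunit, was the most abundant of the pump, at 410, 430 and 432 FPKM under BSA, 488, 459 and 478 FPKM under PA and 534, 500 and 506 FPKM under PA + C3G. It was 0.15 ± 0.04 higher with C3G than under PA, a call lost under equal FPKM sums (0.06) and without PA replicate 2 (0.13), PA replicate 3 (0.15), PA + C3G replicate 1 (0.12) or PA + C3G replicate 3 (0.16). Atp6v0d1 was lower with C3G than under PA (log2 −0.12 ± 0.04), a call lost in 9 of 19 alternatives, with values of −0.10 to −0.13 without BSA replicate 1, BSA replicate 3, PA replicate 1, PA replicate 3 or any 1 of the PA + C3G libraries.

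Several subunits exist as isoforms, and 1 form dominated for most of them. Atp6v0a1 held 82.1% to 85.7% of the FPKM of the 4 a-subunit genes over the 9 libraries and Atp6v0a2 13.4% to 16.8%. Tcirg1, which encodes the a3 form known from osteoclasts and insulin granules, held 0.0564% to 0.245%, at a mean of 0.19 FPKM. Atp6v1b2, Atp6v1c1, Atp6v0d1, Atp6v1e1 and Atp6v1g1 each held at least 97.2% of their subunit in every library. The e subunit was shared, with 73.1% to 77.2% from Atp6v0e2. Mean shares of Atp6v0a1 were 82.6% under BSA, 84.0% under PA and 84.4% under PA + C3G. Beside the 18 tested, 7 V-ATPase genes were under the filter. Atp6v1fnb, taken for its symbol, is a neighbour of Atp6v1f and not a subunit, and had no call.

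**Figure D4:**
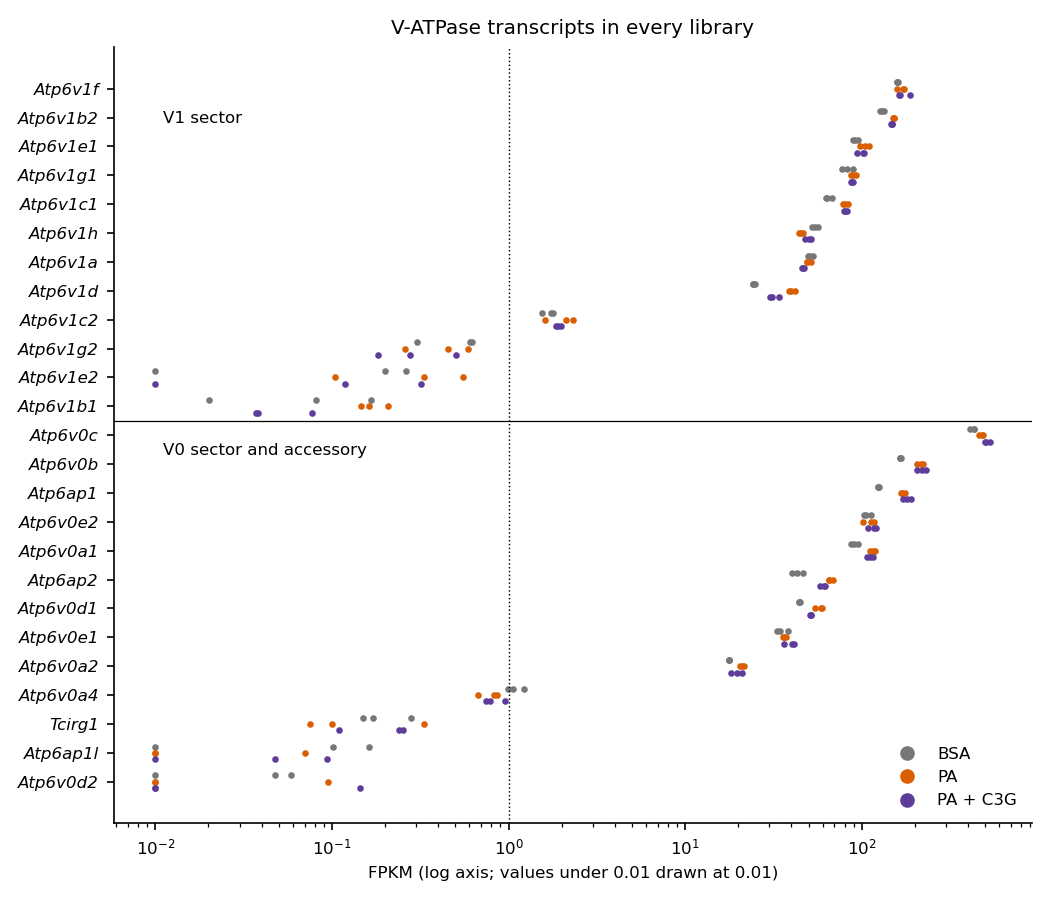
FPKM (horizontal log axis, values under 0.01 drawn at 0.01) of the 25 V-ATPase genes (rows, V1 above the line and V0 with accessory proteins below) in 3 BSA, 3 PA and 3 PA + C3G libraries; the dotted line marks 1 FPKM, the level a gene's mean had to reach to be tested. Atp6v0c is highest, at 410 to 534 FPKM, and Tcirg1 has a mean of 0.19 FPKM.

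Differences between PA + C3G and PA were fewer and ran in both directions. Compared with the PA group, 14 of the 117 tested genes were higher in the PA + C3G group (11.97%, against 11.1% of all genes tested) and 19 were lower (16.2%, against 10.2%), while 84 had no call. The median log2 fold change was 0.01, and the tested genes lay between −0.70 and 0.56. Scaling mattered here: with libraries rescaled to equal FPKM sums, 8 were higher and 31 lower, and the median of all genes tested moved to −0.09. Without PA replicate 3, 12 were lower. Membrane proteins had 7 of the 19 lower genes, glycosidases 4, proteases 3 and sorting genes 3.

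The comparison of PA + C3G with BSA shares its libraries with the other 2, so its values are given beside them and not as further support. In it, 71 of the 117 tested genes were higher (60.7%, against 19.0% of all genes tested) and 2 were lower (1.71%, against 17.9%), with a median log2 fold change of 0.27. The 2 lower genes were Ap1s2 and Ap1m2. Cd63 (1.53 ± 0.04), Gaa (1.39 ± 0.05), Npc2 (1.34 ± 0.08), Ctsd (1.24 ± 0.04), Lamp2 (1.19 ± 0.05) and Neu1 (1.18 ± 0.08) were the 6 with the largest called log2 fold changes. By role, 7 of 7 proteases, 19 of 26 glycosidases, 14 of 19 membrane proteins, 13 of 18 V-ATPase genes and 9 of 30 sorting genes were higher. Some V-ATPase calls here were weak: Atp6v1f held in 3 of 19 alternatives, Atp6v1e1 and Atp6v0e1 in 12 and Atp6v0a2 in 16. Each of these was lost under equal FPKM sums and with limma. All members together held 9969 ± 227 FPKM under PA + C3G, beside 10370 ± 281 under PA and 6876 ± 40.5 under BSA.

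A list of 41 tested lysosome genes that the selection did not take was set beside the members. It held regulators, membrane proteins and others such as Grn, Plbd2 and Scpep1. With PA, 21 of the 41 rose (51.2%, against 25.8% of all genes tested) and 3 fell (7.32%, against 25.2%). The genes for TFEB and TFE3 had no call: Tfeb was at 15.7, 17.4 and 16.4 FPKM under BSA, 16.8, 16.5 and 14.9 FPKM under PA and 14.68, 15.97 and 13.99 FPKM under PA + C3G, and Tfe3 at 21.8 to 22.9, 22.4 to 25.1 and 20.7 to 22.6 FPKM. Mitf, a related factor, was low, at 0.507, 0.533 and 0.446 FPKM under BSA, 0.653, 1.95 and 1.73 FPKM under PA and 1.47, 1.38 and 0.657 FPKM under PA + C3G. It rose by log2 1.57 ± 0.41 with PA (edgeR adjusted p = 0.0097), or 0.67 with limma on log2(FPKM + 1), and its overall mean of 1.04 FPKM passed the filter through the PA and PA + C3G libraries. Transcript levels say nothing of where these proteins were in the cell. Flcn, which with its partners Fnip1 and Fnip2 acts on the Rag GTPases that anchor TFEB and mTORC1 to lysosomes, went from 20.2, 22.1 and 20.9 FPKM under BSA to 50.7, 51.2 and 52.1 FPKM under PA and 39.6, 42.0 and 41.5 FPKM under PA + C3G. It rose by log2 1.31 ± 0.04 with PA and differed by −0.29 ± 0.04 with C3G against PA. Fnip2 (1.10 ± 0.07 and −0.50 ± 0.07), Rragd (1.29 ± 0.07 and −0.39 ± 0.07) and Rragc (0.67 ± 0.04 and −0.31 ± 0.04) had the same signs in these 2 comparisons. Other such genes of the list did not all follow. Rraga (log2 0.0015), Lamtor2 (−0.04), Lamtor4 (0.04) and Slc38a9 (0.17) had no call with PA. Lamtor1 (0.46 ± 0.06), Lamtor3 (0.49 ± 0.07) and Lamtor5 (0.48 ± 0.08) rose. With C3G against PA, only Lamtor3 among these had a call (−0.25 ± 0.07), kept in 12 of 19 alternatives. Grn, which encodes progranulin, rose by log2 0.69 ± 0.05, the carboxypeptidase gene Scpep1 by 1.02 ± 0.05 and the chloride exchanger gene Clcn7 by 0.54 ± 0.04. The 3 that fell were Tpcn1, Plbd2 and Rptor, by 0.77, 0.24 and 0.22 on the log2 scale. With C3G against PA, 12 of the 41 were lower (29.3%, against 10.2% of all genes tested) and 3 higher (7.32%, against 11.1%).

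The palindrome occurred among genes of all 3 calls for PA versus BSA. Of the 57 members with a promoter window that rose with PA, 8 held TCACGTGA, as did 1 of 8 that fell and 2 of 29 with no call. Ctsd, Cln3, Lamp1, Gnptg, Mcoln1, Atp6v0d1, Igf2r and Galc were the 8. Galc, a galactosylceramidase, rose by log2 0.33 ± 0.11, a call lost without BSA replicate 1 (0.32), BSA replicate 2 (0.30), BSA replicate 3 (0.34), PA replicate 1 (0.27) or PA replicate 3 (0.32), or with no filter (0.33). Lamp1 and Igf2r held 2 matches each. Npc2, Cd63, Gaa and Engase, which had the largest called rises of log2 1.34 and above, held no TCACGTGA in the windows that could be matched. A missing match says only that these letters are not in the window. The windows of Cd63 and Gaa did hold CACGTG, and those of Npc2 and Engase did not. CACGTG lay in 15 of the 57 that rose (26.3%), 2 of the 8 that fell (25.0%) and 2 of the 29 with no call (6.9%). In all windows its share was 7.27%.

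**Figure D5:**
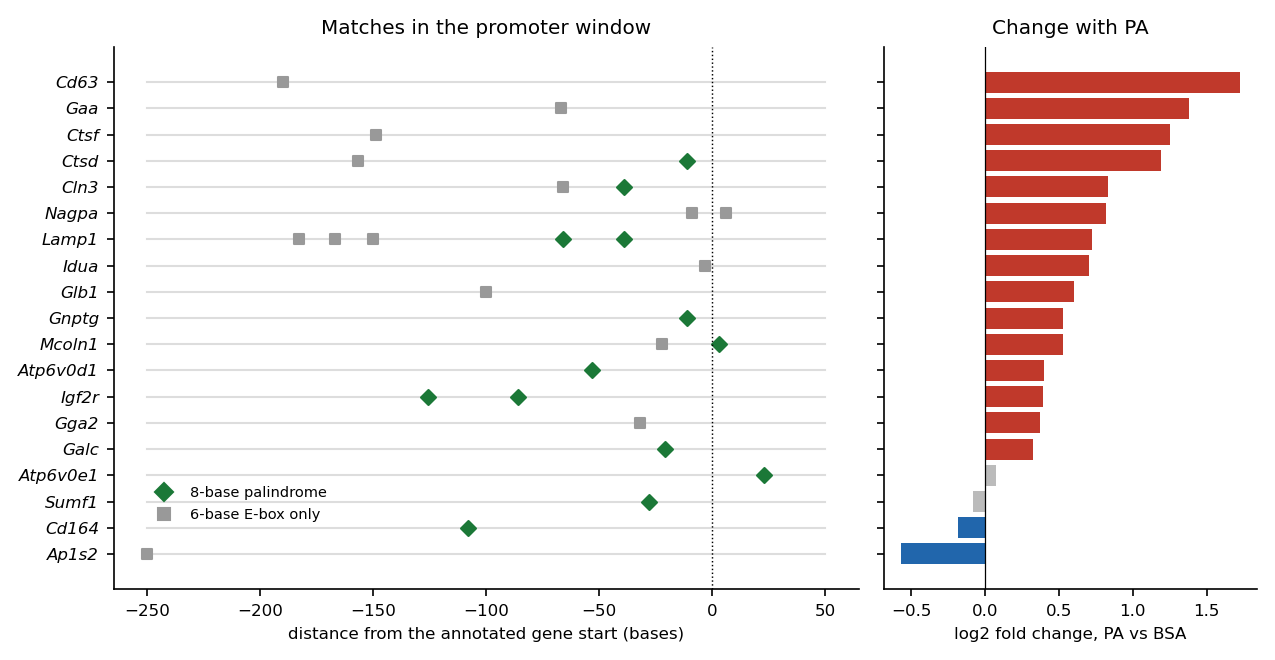
Left, positions of motif matches (first base, in bases from the annotated gene start at 0) in the RefSeq promoter windows of the 19 tested genes with an E-box, the 8-base palindrome as green diamonds and the 6-base E-box alone as grey squares. Right, log2 fold change of the same genes for PA versus BSA, red where called higher, blue where called lower and grey with no call. Green diamonds occur beside red, grey and blue bars.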

How the data were processed

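RNA was poly(A)-selected, made into strand-marked libraries and sequenced on a NovaSeq as paired reads of 150 bases. The submitters' processing notes name cutadapt 1.9, HISAT2 2.0.4, StringTie 1.3.4d, DESeq2 and edgeR, and the genome build and counting strand are not given in the sources used here. The authors deposited 1 table of 20645 genes with, per library, estimated counts (whole numbers that pile up at multiples of 4) and FPKM values normalised by the authors for length and depth. Library totals of these counts, 45559993 to 66730721, were taken as depth, although the pile-up leaves the number of independent fragments unknown. A set of 140 genes was taken from the table's KEGG column and symbols, and roles were assigned by hand. The members and lists were chosen with earlier results of these data known. Genes with a mean of at least 1 FPKM were fitted with edgeR 4.0.16 (R 4.3.3; TMM scaling, quasi-likelihood test, all 9 libraries, Benjamini-Hochberg adjustment), after the code was tested on simulated data. Genes named were, per role, up to 4 members with the largest called change for PA versus BSA, up to 3 for PA + C3G versus PA and up to 2 for PA + C3G versus BSA among those whose libraries did not overlap, all tested V-ATPase genes, and Ctsd, Ctsb, Ctsl, Lamp1, Lamp2, Npc1, Mcoln1, Tcirg1, M6pr, Igf2r, Cltc, Tfeb and Tfe3. Other genes were named after their values were seen, and a few genes that the rule takes are not reported here. Summed FPKM were compared by exact two-sided permutation tests (scipy 1.17.1). Results were recomputed with DESeq2 1.42.0, its size factors in edgeR, equal FPKM sums per library, no filter, a minimum of 5 FPKM, only the compared groups, a replicate block, limma 3.58.1 on log2(FPKM + 1) or log2(FPKM + 0.1), counts divided by 4, the DEG criterion of the study, and leaving out each library.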

Additional observations from a re-analysis of the deposited data

How the results depend on the processing

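In the main fit, 25.8% of all genes tested were higher and 25.2% lower for PA versus BSA. These shares were 19.0% and 17.9% for PA + C3G versus BSA, and 11.1% and 10.2% for PA + C3G versus PA. For PA versus BSA, 67 to 73 of the 117 tested genes were higher when 1 library was left out and 70 to 76 under the other settings with an adjusted p, with 9 to 10 and 9 to 11 lower. For PA + C3G versus BSA the counts were 66 to 71 and 63 to 77 higher, with 2 and 2 to 3 lower. For PA + C3G versus PA they were 10 to 17 higher and 12 to 19 lower with 1 library left out, the 12 coming without PA replicate 3. Equal FPKM sums gave 8 higher and 31 lower there and moved the median of all genes to −0.09. The DEG criterion of the study, which asks for a fold change above 2, gave 16 higher and 0 lower with PA against BSA. It gave 0 and 0 with PA + C3G against PA, and 12 and 0 with PA + C3G against BSA. Over all 12958 genes tested it gave 428 and 552, 91 and 56, and 241 and 359. Without the fold limit, an unadjusted edgeR p below 0.05 gave 76 and 11, 25 and 22, and 80 and 2. Over all genes tested this rule gave 3713 and 3634, 2295 and 2128, and 3046 and 2906. DESeq2 with adjusted p gave 74 and 10, 14 and 19, and 76 and 2. Over all genes tested DESeq2 gave 3463 and 3422, 1722 and 1601, and 2611 and 2596. The members' median log2 fold change for PA + C3G versus PA, 0.01 in the report, was −0.0819 under equal FPKM sums and −0.0292 with limma at either pseudocount, so its sign depends on the setting.

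Of 189 calls on members, 155 held in every alternative run for that gene (19, or 18 for Ap1s3, Ap4e1 and Mfsd8, which gave no value at the minimum of 5 FPKM), and 0 changed sign. This pools the 3 comparisons, and calls for PA + C3G versus PA were the least stable. With members and the outside list together, leaving out PA replicate 3 ended 16 of those calls and kept 32. Leaving out PA + C3G replicate 1 gave the same counts. The most that 1 setting ended was 8, with 99 kept, for PA versus BSA (without BSA replicate 2). For PA + C3G versus BSA it was 12, with 83 kept (limma). The log2 ratios of summed FPKM that changed sign were all small. For PA + C3G versus PA, equal FPKM sums turned sulfatases from 0.0391 to −0.0137, V0 with accessory proteins from 0.0471 to −0.0056 and the whole V-ATPase from 0.0214 to −0.0313, and the last ran from −0.0065 (without PA + C3G replicate 1) to 0.0465 with 1 library left out, at −0.0008 without PA replicate 2. For PA + C3G versus BSA, sorting genes turned from −0.0009 to 0.0012 under equal FPKM sums and ran from −0.0205 to 0.0124 with 1 library left out. The cause of these shifts was not tested.

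Replicate numbers were shared between groups, but deviations of same-numbered libraries correlated at only −0.094 to 0.07, so the numbers were not taken as pairs. With the replicate number as a block, the counts were 74 higher and 11 lower with PA against BSA, 15 and 19 with PA + C3G against PA, and 77 and 2 with PA + C3G against BSA. The block ended the calls of Galc for PA versus BSA (log2 0.33, adjusted p = 0.056) and of Nagpa for PA + C3G versus PA (−0.34, adjusted p = 0.053). Low counts limit the 23 genes under 1 FPKM, for which no difference was tested.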
